A study of Mus musculus with 9 samples.

Results

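Ribosome biogenesis is the making of ribosomes in the nucleolus, and 41 mouse genes that carry out or drive it were followed here in RNA-seq counts of spleen CD4+ T cells. The genes were taken from a list of symbols, matched through the GENCODE M21 annotation to the identifiers of the count table, and all 41 were found among its 47937 identifiers. All 41 also passed the filter on low counts that left 12536 genes for testing. They were sorted by role into 6 nucleolar scaffold proteins and a helicase, 3 core proteins of box C/D snoRNPs, 4 of box H/ACA snoRNPs, 5 genes of RNA polymerase I, 12 small subunit and 11 large subunit assembly factors.

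The study sequenced 9 libraries of CD62L+ CD4+ T cells isolated from C57BL/6 spleen on magnetic beads, 3 per group, with the replicate labels 1, 4 and 5 in each. For resting cells the labels name no stimulus. Control cells were activated on plates coated with antibodies to CD3 and CD28 after 15 min with DMSO, the solvent, and TEPP-46 cells were activated the same way after 15 min with TEPP-46, an activator of the glycolytic enzyme pyruvate kinase M2. The labels give the TEPP-46 dose as 50 to 100 μM for the group and not per library. How long cells were activated, and whether resting cells were cultured, is not stated in the sources used here. No label ties the libraries of a group to different mice, and the p-values then reflect only the spread between these libraries, which may be technical.

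A ribosome begins with RNA polymerase I, which copies the ribosomal DNA repeats into a long precursor rRNA. Small nucleolar ribonucleoproteins (snoRNPs) then guide chemical changes on that precursor, box C/D particles adding methyl groups to ribose and box H/ACA particles turning uridine into pseudouridine. Separate sets of assembly factors fold and cut the precursor into the small and the large subunit. A naive T cell holds few ribosomes and enlarges its nucleoli when activated, and the transcription factor MYC, which binds the E-box CACGTG with its partner MAX, is a known regulator of many of these genes.

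The E-box was therefore looked for in the RefSeq promoter windows (assembly GRCm38.p6, 250 bases before to 50 bases after each start). Of the members, 36 had a window. The letters CACGTG, which read the same on both strands, occurred in 10 of these 36 (27.8%), against 12.1% of the 9013 tested genes with a window and 8.09% of all 27025 genes with a window. A member's E-box usually lay after the start: 8 of 36 members (22.2%) had it there, against 2.01% of the tested genes. Before the start it was found in 2 members (5.56%), against 10.1% of the tested genes. A match is a description of the letters and not a site of binding.

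The upstream 250 bases are shown for the 2 members with an E-box before the start, since these place the motif in its promoter context. Capitals mark the E-box, and positions count from the first base of the transcript as 0. The Rrn3 window holds the motif at -215 and -48 (chr16:13780449-13780698, plus strand) and the Nop2 window at -60 (chr6:125131633-125131882, plus strand), both on GRCm38.p6.
Rrn3: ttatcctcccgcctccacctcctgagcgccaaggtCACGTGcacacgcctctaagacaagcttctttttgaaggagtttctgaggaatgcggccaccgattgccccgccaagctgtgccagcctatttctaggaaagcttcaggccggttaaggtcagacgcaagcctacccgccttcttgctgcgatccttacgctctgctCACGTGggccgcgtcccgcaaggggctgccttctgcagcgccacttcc
Nop2: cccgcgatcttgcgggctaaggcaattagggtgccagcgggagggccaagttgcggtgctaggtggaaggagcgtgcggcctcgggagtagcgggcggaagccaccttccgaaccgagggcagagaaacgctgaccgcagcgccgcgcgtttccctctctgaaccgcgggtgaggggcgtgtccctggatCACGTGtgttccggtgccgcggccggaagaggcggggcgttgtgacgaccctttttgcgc

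For the 8 members with the motif after the start, 30 bases around it are shown to let the flanks be compared. This display was chosen after the values were seen. The motif begins 40 bases after the start in Mybbp1a (chr11:72441347-72441376, plus strand), 17 in Wdr43 (chr17:71616220-71616249, plus), 37 in Utp20 (chr10:88826765-88826794, minus), 15 in Utp4 (chr8:106893643-106893672, plus), 24 in Tsr1 (chr11:74898092-74898121, plus), 28 in Ltv1 (chr10:13193092-13193121, minus), 2 in Pes1 (chr11:3963965-3963994, plus) and 23 in Nle1 (chr11:82908355-82908384, minus). All coordinates are on GRCm38.p6.
Mybbp1a: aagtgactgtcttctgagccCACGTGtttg
Wdr43: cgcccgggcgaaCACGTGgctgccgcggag
Utp20: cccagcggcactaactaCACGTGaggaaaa
Utp4: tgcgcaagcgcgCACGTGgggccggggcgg
Tsr1: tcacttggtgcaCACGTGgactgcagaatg
Ltv1: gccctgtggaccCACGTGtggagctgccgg
Pes1: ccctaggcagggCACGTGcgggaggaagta
Nle1: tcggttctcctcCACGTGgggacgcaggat

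Library totals ran from 2397304 to 5030643 counts, and 3 counts in a library correspond to 0.596 to 1.25 counts per 1000000 of these unscaled totals. Levels below are in CPM, counts per 1000000 on library sizes scaled by TMM factors. All 10 T cell markers had counts in every group, with a summed level of 5745 to 9328 CPM in resting, 4460 to 5702 CPM in control and 8048 to 9760 CPM in TEPP-46 libraries. The 10 B cell markers summed to 2569 to 3972 CPM in resting, 234 to 264 CPM in control and 742 to 1289 CPM in TEPP-46 libraries, with Blk at 0 in the control libraries. Myeloid markers ran from 124 to 190 CPM, 12.9 to 18.4 CPM and 13.2 to 163 CPM in the same order, and 5 of 10 (Tyrobp, Mpo, S100a8, S100a9, Adgre1) were at 0 in the control libraries. Platelet and red cell markers summed to 16.5, 271 and 84.1 CPM in TEPP-46 libraries 1, 4 and 5 and to at most 11.1 CPM in every resting and control library. Resting library 1 and TEPP-46 libraries 4 and 5 stood apart in 3 nuclear retained RNAs (Malat1, Neat1, Kcnq1ot1), which summed to 8647, 12684 and 13085 CPM against 2169 to 5435 CPM in the other 6 libraries.

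Across the 41 members, the summed level was 4003, 5045 and 4818 CPM in the resting libraries, 6239, 5878 and 5912 CPM in the control libraries and 4180, 3152 and 2767 CPM in the TEPP-46 libraries (always in the order of labels 1, 4 and 5). The control libraries lay above every resting library. TEPP-46 libraries 4 and 5 lay below every resting library, while library 1 lay within the resting range. Much of the rise with activation came from 2 members: without Ncl and Npm1, the sums were 2874, 3879 and 3814 CPM, then 4078, 3925 and 3756 CPM, then 2364, 2393 and 1924 CPM. On that reduced sum the resting and control ranges overlapped, and all 3 TEPP-46 libraries were below all 6 others. In bulk RNA these are shares of a library, so fewer cells of a type and less RNA per cell cannot be told apart.

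**Figure D1:**
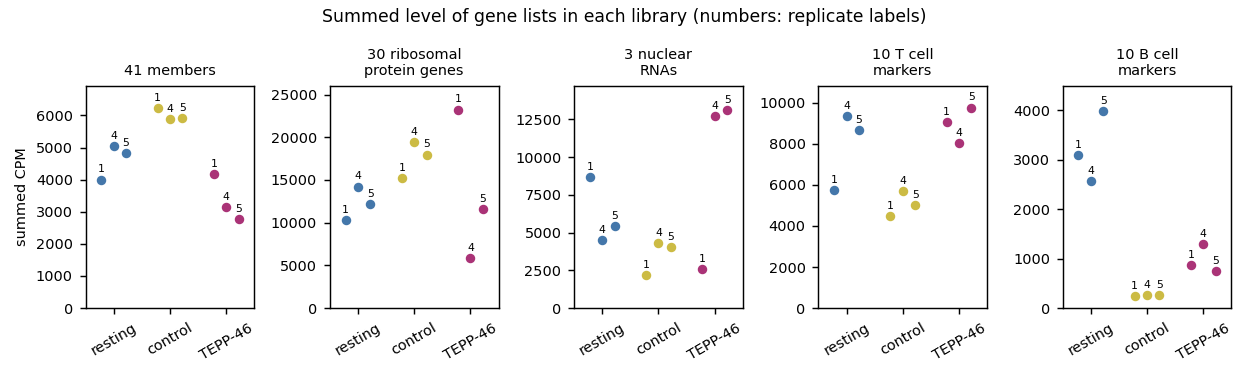
Summed level (CPM, linear axis from 0) of the 41 members, 30 ribosomal protein genes, 3 nuclear RNAs, 10 T cell markers and 10 B cell markers, with 1 point per library and its replicate label beside it. The members' sum is lowest in TEPP-46 libraries 4 and 5 (3152 and 2767 CPM) and highest in the 3 control libraries (5878 to 6239 CPM), whereas the B cell markers are highest in the resting libraries.

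**Figure D2:**
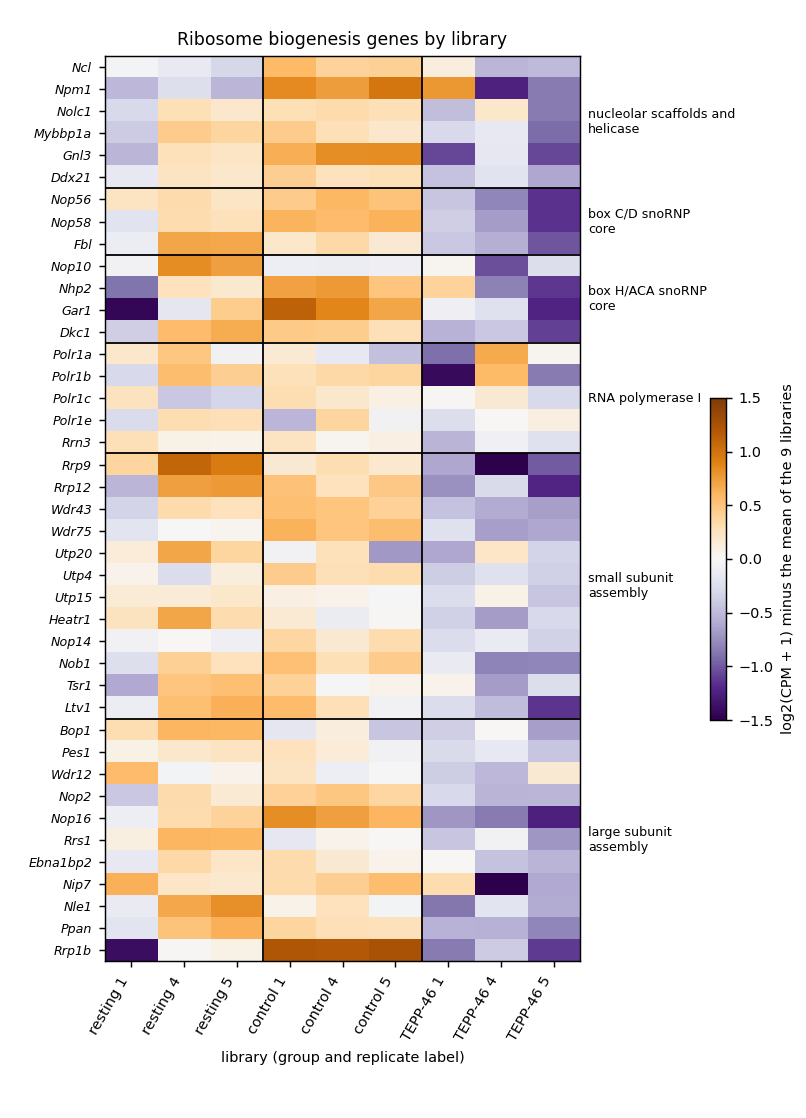
Level of each member in each library as log2 CPM with a pseudocount, minus its mean over the 9 libraries. Rows are grouped by role and columns by group, and orange is above and purple below the gene's mean. The TEPP-46 columns are mostly purple outside the RNA polymerase I rows, and resting library 1 is paler or more purple than the other 2 resting libraries in most rows.

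The 3 comparisons differed in how many members passed the test. Activation with DMSO raised 3 of 41 members against resting cells and lowered none, TEPP-46 lowered 16 against control and raised none, and TEPP-46 lowered 9 against resting and raised none (edgeR quasi-likelihood test, adjusted p below 0.05). Among all 12536 tested genes, activation raised 15.5% and lowered 15.8%, so 3 of 41 was a smaller share than the background. TEPP-46 lowered 6.43% and raised 9.72% against control, and lowered 3.92% and raised 6.37% against resting. The median log2 fold change of the members was 0.06 for control against resting (all genes -0.04), -0.74 for TEPP-46 against control (all genes 0.04) and -0.62 for TEPP-46 against resting (all genes 0.02). Below 0 were 18, 40 and 39 of the 41 members, in that order, against 51.7%, 48.0% and 48.9% of all genes. At an unadjusted p below 0.05, edgeR had 2 members lower and 7 higher with activation, and 26 and 21 lower with none higher in the TEPP-46 comparisons. The share of all genes at that unadjusted threshold was not counted. DESeq2 called none in the direction in which edgeR called none, and limma-voom called 1, Bop1, lower with activation, while the edgeR fit of the resting and control libraries alone called 8 higher and 2 lower (23.9% and 23.3% of all genes). Comparisons with TEPP-46 share the TEPP-46 libraries, and the comparisons with control or resting share those, so the values are given side by side.

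**Figure D3:**
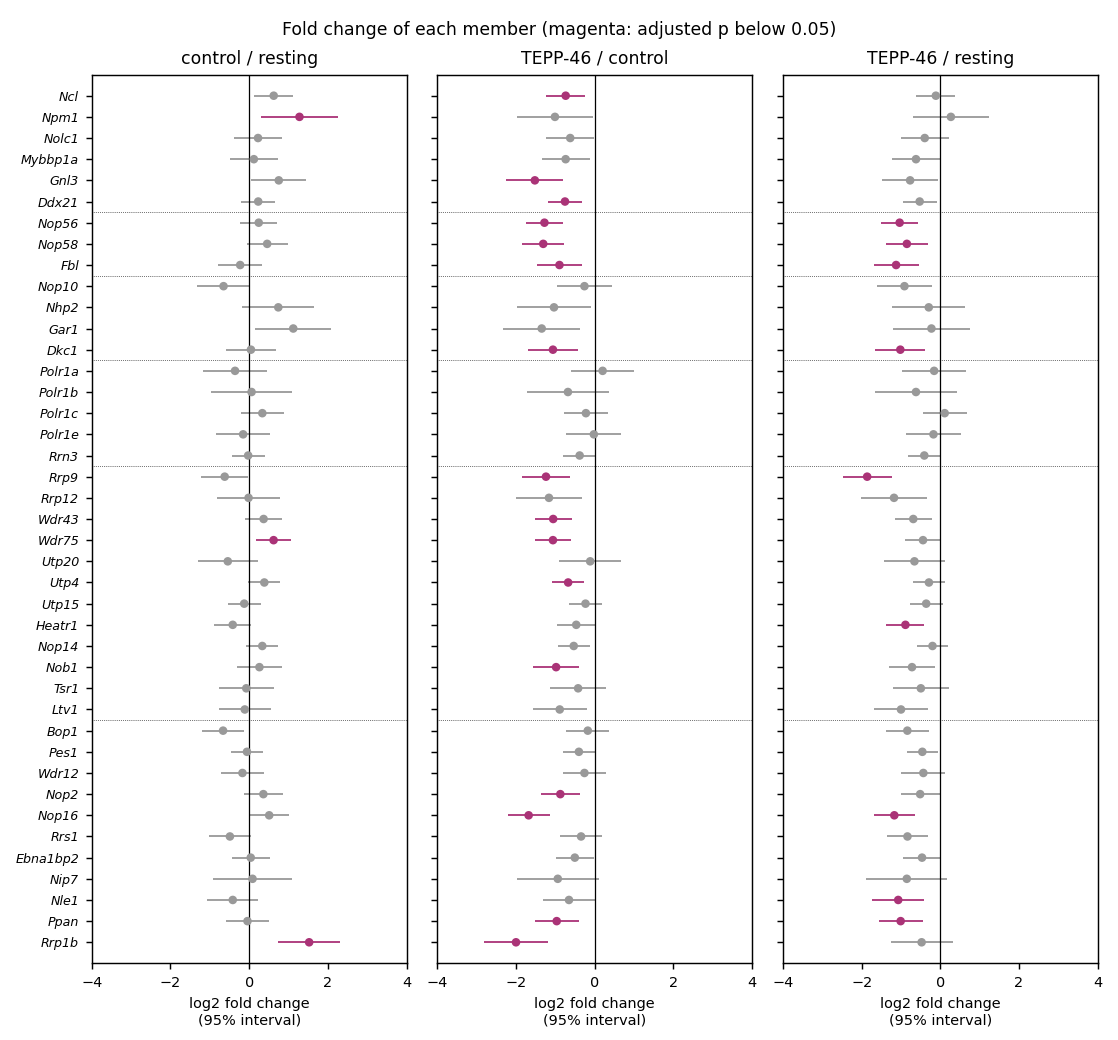
Log2 fold change of each member with its 95% interval in the 3 comparisons, with members past an adjusted p of 0.05 in magenta and the others in grey, and dotted lines between roles. The middle panel has 16 members in magenta, all left of 0, and the left panel has 3, all right of 0 (Npm1, Wdr75, Rrp1b).

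**Figure D4:**
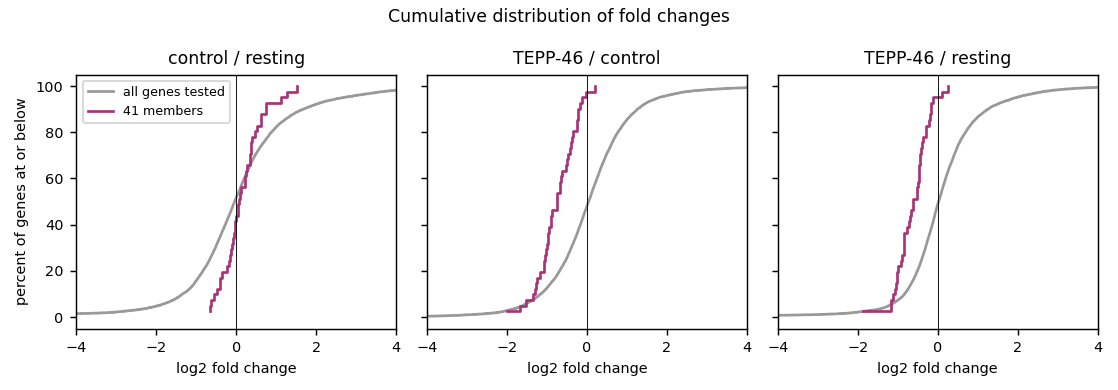
Percent of genes at or below each log2 fold change, for the 41 members and for all 12536 tested genes. The members' curve lies left of the curve of all genes in the TEPP-46 panels over most of its range (medians -0.74 and -0.62 against 0.04 and 0.02) and crosses it near 0 in the control against resting panel.

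Nucleolin (Ncl) and nucleophosmin (Npm1) are the abundant RNA-binding scaffolds of the nucleolus. Ncl stood at 709, 664 and 587 CPM in the resting libraries, 1089.8, 955 and 976 CPM in the control libraries and 789, 506 and 514 CPM in the TEPP-46 libraries. All control libraries exceeded all resting and all TEPP-46 libraries, and the resting and TEPP-46 ranges overlapped. The log2 fold change, given with its standard error (SE) throughout, was -0.74 ± 0.22 for TEPP-46 against control (adjusted p = 0.0485) and 0.62 ± 0.22 for control against resting (adjusted p = 0.0565). The call of Ncl against control was lost in 11 of 19 other settings of the analysis. Npm1 stood at 419.8, 503 and 416 CPM in the resting libraries, 1071, 998 and 1180.2 CPM in the control libraries and 1027, 253 and 330.0 CPM in the TEPP-46 libraries. It rose with activation by 1.28 ± 0.44 (adjusted p = 0.0489), with no overlap of the groups, and this call was lost in 7 of 19 other settings. TEPP-46 library 1 held Npm1 at the control level and libraries 4 and 5 below every resting library, so the value against control, -1.01 ± 0.44, missed the threshold (adjusted p = 0.134). Without TEPP-46 library 1, Npm1 was among the members lowered against control. Of the 50-base stretches of the Npm1 transcript, 40.9% occur in other genes, so its count is uncertain.

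Gnl3 (nucleostemin, a nucleolar GTPase) read 24.5, 43.3 and 42.2 CPM in the resting libraries, 56.4, 64.1 and 64.8 CPM in the control libraries and 16.5, 31.9 and 16.5 CPM in the TEPP-46 libraries. Its TEPP-46 libraries were all below the control libraries and overlapped the resting ones, and it fell by 1.52 ± 0.33 on the log2 scale against control (adjusted p = 0.0147). Exons of Gnl3 overlap those of Pbrm1 on the other strand, and the strand of counting is not known. Ddx21, a DEAD-box helicase that acts on rRNA and snoRNAs, read 146, 192 and 187 CPM in the resting libraries, 219.5, 196 and 200.2 CPM in the control libraries and 118, 141 and 105 CPM in the TEPP-46 libraries. All 3 TEPP-46 libraries were below the 6 others, and the change against control was -0.76 ± 0.20 (adjusted p = 0.0292). The snoRNP chaperone Nolc1 and the nucleolar MYB-binding protein Mybbp1a did not pass in any comparison, with -0.62 ± 0.28 and -0.74 ± 0.28 against control (adjusted p = 0.144 and 0.0889). In this role, 3 of 6 members fell with TEPP-46 against control (all genes 6.43%). None fell against resting (all genes 3.92%), where 3 had an unadjusted p below 0.05 in edgeR.

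All 3 core proteins of the box C/D snoRNPs fell with TEPP-46 against both other groups. Nop56 and Nop58 form the pair that holds the guide RNA, and fibrillarin (Fbl) is the methyltransferase. Nop56 (ENSMUSG00000027405.16, chr2:130274430-130279313 on GRCm38 in GENCODE M21, as for the gene positions that follow) measured 303, 324 and 301 CPM in the resting libraries, 349, 386 and 364 CPM in the control libraries and 190.3, 147 and 115 CPM in the TEPP-46 libraries. Nop58 (ENSMUSG00000026020.9, chr1:59684971-59719044) measured 119, 172 and 166 CPM in the resting libraries, 212, 204 and 213 CPM in the control libraries and 106, 85.7 and 61.5 CPM in the TEPP-46 libraries. Fbl measured 91.3, 159.5 and 158 CPM in the resting libraries, 113, 125 and 110.4 CPM in the control libraries and 73.2, 66.0 and 47.9 CPM in the TEPP-46 libraries. For all 3 genes the TEPP-46 libraries lay below the 6 others, with library 5 the lowest.

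Against control, Nop56 changed by -1.28 ± 0.21 (adjusted p = 0.00598), Nop58 by -1.31 ± 0.24 (adjusted p = 0.0086) and Fbl by -0.90 ± 0.26 (adjusted p = 0.0406). Against resting the changes were -1.04 ± 0.21, -0.85 ± 0.24 and -1.13 ± 0.26 (adjusted p = 0.0154, 0.0474 and 0.0241). Activation alone gave 0.24 ± 0.21, 0.46 ± 0.23 and -0.23 ± 0.25, none past the threshold, although the control libraries of Nop56 and Nop58 did not overlap the resting ones. Counts of Fbl and Nop56 are uncertain, since 70.4% and 37.6% of their 50-base stretches occur in other genes, and exons of Nop56 overlap Idh3b on the other strand. Nop58 shares 1.25%.

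**Figure D5:**
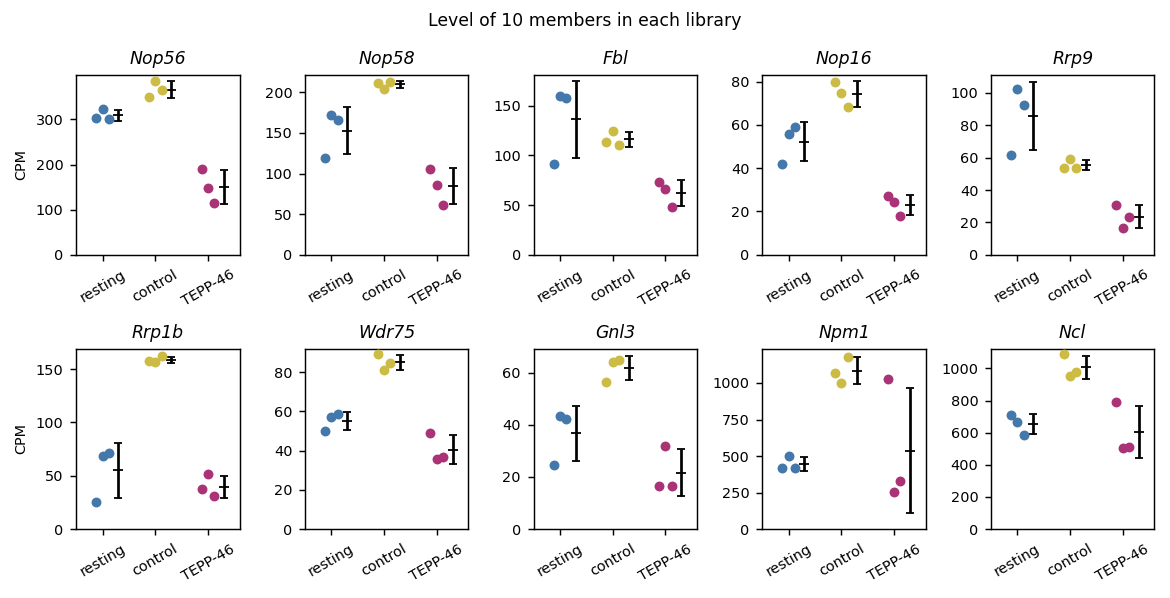
CPM (linear axis from 0) in each library for 10 members chosen after their values were seen, with points in the order of labels 1, 4 and 5 and the mean ± SD of the 3 libraries beside them. The TEPP-46 points of Nop56, Nop58, Fbl, Nop16, Rrp9 and Wdr75 lie below all resting and control points, and Npm1 has TEPP-46 library 1 at 1027 CPM with the other 2 at 253 and 330.0 CPM.

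Among the box H/ACA proteins, dyskerin (Dkc1), the pseudouridine synthase, was the member that passed. Dkc1 read 89.5, 171 and 183 CPM in the resting libraries, 159, 157 and 141 CPM in the control libraries and 78.9, 86.5 and 53.7 CPM in the TEPP-46 libraries. The TEPP-46 libraries lay below the 6 others, and the change was -1.06 ± 0.29 against control (adjusted p = 0.0336) and -1.02 ± 0.29 against resting (adjusted p = 0.0497). Its exons overlap Mpp1 on the other strand. Nop10 and Nhp2, small structural proteins of the particle, had the highest level per kilobase of coding sequence in this role (331 and 112 CPM per kb), on a coding sequence of only 192 and 459 bases.

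Nop10 stood at 57.3, 108 and 99.5 CPM in the resting libraries, 55.9, 55.7 and 56.7 CPM in the control libraries and 61.3, 28.6 and 49.8 CPM in the TEPP-46 libraries. Nhp2 stood at 24.7, 56.0 and 52.6 CPM in the resting libraries, 77.0, 79.7 and 65.8 CPM in the control libraries and 61.1, 26.0 and 20.7 CPM in the TEPP-46 libraries. Resting library 1 was the lowest resting library for both genes, and TEPP-46 library 1 was the highest TEPP-46 library. Neither passed: against control the changes were -0.26 ± 0.31 and -1.04 ± 0.42 (adjusted p = 0.58 and 0.111). Gar1, the fourth core protein, had 1.12 ± 0.44 with activation and -1.35 ± 0.44 with TEPP-46 against control, with no overlap of the groups in either, and adjusted p-values of 0.0735 and 0.0611.

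No gene of RNA polymerase I passed in any comparison, 0 of 5 had an unadjusted p below 0.05 in edgeR, and neither DESeq2 nor limma-voom called any. Leaving out TEPP-46 library 4, alone or with resting library 1, put Polr1b among the members lowered by TEPP-46 in both comparisons, and leaving out both libraries put Polr1c among those raised by activation. Rrn3, the initiation factor that brings the polymerase to the ribosomal DNA, stood at 158, 136 and 135 CPM in the resting libraries, 152, 133 and 136 CPM in the control libraries and 88.8, 123 and 111 CPM in the TEPP-46 libraries. Polr1c, a subunit shared with RNA polymerase III, stood at 51.7, 32.0 and 34.2 CPM in the resting libraries, 53.7, 49.2 and 45.9 CPM in the control libraries and 43.7, 48.7 and 34.9 CPM in the TEPP-46 libraries. The TEPP-46 libraries of Rrn3 were below the 6 others, with -0.38 ± 0.19 against control (adjusted p = 0.184, 95% interval -0.81 to 0.04), and the groups overlapped for Polr1c, with -0.23 ± 0.25 (95% interval -0.78 to 0.33).

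The largest subunit Polr1a, the second largest Polr1b and the subunit Polr1e had TEPP-46 values against control of 0.20, -0.68 and -0.02. Their 95% intervals ran from -0.61 to 1.01, -1.73 to 0.37 and -0.72 to 0.68, and those of Polr1a and Polr1b each reach beyond 1 log2 unit. Summed over the 5 genes, the level was 307, 305 and 279 CPM in resting, 309, 289 and 273 CPM in control and 186, 316 and 236 CPM in TEPP-46 libraries, and TEPP-46 library 4 was the highest of all 9. Without TEPP-46 library 4, Polr1a was below 0 against control. Per kilobase of coding sequence the 5 genes had a median level of 14.4 CPM per kb, against 107 for the box C/D proteins and 109 for the box H/ACA proteins.

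Small subunit assembly begins while the precursor is still being copied, on a large particle called the processome. Rrp9, which binds the U3 snoRNA of the processome, had the largest drop of any member against resting (ENSMUSG00000041506.14, chr9:106475963-106485424). It read 62.0, 103 and 92.4 CPM in the resting libraries, 53.7, 59.3 and 53.9 CPM in the control libraries and 30.5, 16.4 and 23.3 CPM in the TEPP-46 libraries. The 3 groups did not overlap: resting was highest, control intermediate and TEPP-46 lowest. The change was -1.86 ± 0.28 against resting (adjusted p = 0.00451), -1.24 ± 0.28 against control (adjusted p = 0.0178) and -0.62 ± 0.27 for control against resting (adjusted p = 0.103). Its exons overlap Parp3 on the other strand.

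Wdr43, Wdr75, Utp4, Utp15 and Heatr1 belong to the subcomplex that joins the processome first and also promotes transcription of the ribosomal DNA. Wdr43 read 159, 253 and 241 CPM in the resting libraries, 293, 284 and 264 CPM in the control libraries and 146, 132 and 126 CPM in the TEPP-46 libraries. Wdr75 read 50.1, 57.0 and 58.4 CPM in the resting libraries, 89.0, 81.1 and 84.4 CPM in the control libraries and 49.0, 35.7 and 36.9 CPM in the TEPP-46 libraries. Utp4 read 121, 97.2 and 127 CPM in the resting libraries, 161, 143 and 147 CPM in the control libraries and 90.2, 101 and 91.2 CPM in the TEPP-46 libraries. TEPP-46 libraries lay below all 6 others for Wdr43 and Wdr75, and below the control libraries for Utp4, where they overlapped the resting range. Against control, Wdr43 changed by -1.06 ± 0.21 (adjusted p = 0.0119), Wdr75 by -1.06 ± 0.20 (adjusted p = 0.00964) and Utp4 by -0.68 ± 0.18 (adjusted p = 0.0333). Wdr75 was also raised by activation, by 0.62 ± 0.20 (adjusted p = 0.0386), a call lost in 8 of 19 other settings.

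Heatr1 followed another order, at 64.2, 87.9 and 67.1 CPM in the resting libraries, 60.1, 49.4 and 54.4 CPM in the control libraries and 41.5, 33.2 and 43.4 CPM in the TEPP-46 libraries. Resting was highest and TEPP-46 lowest without overlap, and the change passed against resting (-0.89 ± 0.22, adjusted p = 0.0315) and not against control (-0.47 ± 0.22, adjusted p = 0.157). Its exons overlap Lgals8 on the other strand. Nob1, the endonuclease that makes the final cut of the small subunit rRNA, read 46.5, 73.9 and 66.4 CPM in the resting libraries, 80.2, 68.2 and 75.4 CPM in the control libraries and 50.3, 31.1 and 31.4 CPM in the TEPP-46 libraries. Its TEPP-46 libraries were below the control libraries and overlapped the resting ones, and it changed by -0.98 ± 0.26 against control (adjusted p = 0.0325).

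Of the other small subunit factors, Rrp12, Utp20, Utp15, Nop14, Tsr1 and Ltv1 did not pass in any comparison. Rrp12, which serves the export of small subunit precursors, and Ltv1, a late precursor factor, had TEPP-46 values of -1.16 ± 0.37 and -0.89 ± 0.31 against control (adjusted p = 0.058 and 0.0724) with no overlap of the groups. Utp15 and Utp20 had -0.24 ± 0.19 and -0.12 ± 0.35, Nop14 had -0.53 ± 0.18 and Tsr1, a GTPase-like late factor, -0.42 ± 0.32. In this role 5 of 12 members fell against control (all genes 6.43%) and 2 of 12 against resting (all genes 3.92%). All 12 log2 fold changes were below 0 in both, although that of Utp20 against control was above 0 in 2 of 19 other settings.

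Among large subunit factors, Nop16 had the smallest adjusted p of any member (ENSMUSG00000025869.11, chr13:54584185-54590090). It read 41.8, 56.0 and 58.8 CPM in the resting libraries, 80.0, 74.6 and 68.3 CPM in the control libraries and 27.0, 24.4 and 18.1 CPM in the TEPP-46 libraries. The TEPP-46 libraries lay below the resting libraries and these below the control libraries, with no overlap. Nop16 fell by 1.68 ± 0.24 on the log2 scale against control (adjusted p = 0.0032) and by 1.17 ± 0.24 against resting (adjusted p = 0.0148), and its value for control against resting, 0.51 ± 0.23, did not pass (adjusted p = 0.115). None of its 50-base stretches occurs in another gene.

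Rrp1b, a nucleolar protein of the large subunit precursor, had the largest change in both comparisons with control (ENSMUSG00000058392.12, chr17:32036100-32062865). It read 25.3, 68.7 and 71.6 CPM in the resting libraries, 158, 156 and 162 CPM in the control libraries and 37.1, 51.3 and 30.7 CPM in the TEPP-46 libraries. The 3 control libraries were close together and stood above all others, while resting and TEPP-46 libraries overlapped. Rrp1b rose by 1.52 ± 0.36 with activation (adjusted p = 0.00966) and fell by 2.00 ± 0.36 with TEPP-46 against control (adjusted p = 0.00841), leaving -0.48 ± 0.36 against resting (adjusted p = 0.432). Rrp1b and Wdr75 were the 2 members that passed upward with activation and downward with TEPP-46. The activation call of Wdr75 was lost in 8 of 19 other settings, and that of Rrp1b in none.

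Nop2, a methyltransferase of the large subunit rRNA whose upstream window is printed above, read 64.4, 109 and 96.5 CPM in the resting libraries, 114, 120.5 and 112 CPM in the control libraries and 69.6, 59.2 and 59.9 CPM in the TEPP-46 libraries. Ppan, a precursor factor named for the fly gene peter pan, read 38.2, 62.6 and 68.6 CPM in the resting libraries, 57.4, 53.8 and 53.2 CPM in the control libraries and 29.7, 29.4 and 24.9 CPM in the TEPP-46 libraries. Nle1, which is handled by the remodelling ATPase of the large subunit precursor, read 36.6, 65.2 and 71.2 CPM in the resting libraries, 41.9, 48.5 and 39.1 CPM in the control libraries and 21.5, 34.9 and 26.2 CPM in the TEPP-46 libraries. Against control, TEPP-46 libraries lay below for all 3 genes, and Nop2 and Ppan passed (-0.88 ± 0.22 and -0.97 ± 0.25, adjusted p = 0.0272 and 0.0298). Against resting, Ppan and Nle1 passed (-1.01 ± 0.25 and -1.07 ± 0.30, adjusted p = 0.0333 and 0.0473), and Nop2 did not (-0.51 ± 0.22, adjusted p = 0.172).

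Ebna1bp2, an early large subunit factor with a high level per kilobase (105 CPM per kb), read 85.5, 121 and 111 CPM in the resting libraries, 119.9, 107 and 98.6 CPM in the control libraries and 94.9, 68.9 and 65.0 CPM in the TEPP-46 libraries. Its TEPP-46 libraries were below the control libraries, with -0.51 ± 0.22 (adjusted p = 0.137). Bop1, Pes1 and Wdr12 form a complex of 3 proteins needed for large subunit rRNA processing, and none of them passed. Their TEPP-46 values against control were -0.18 ± 0.24, -0.40 ± 0.18 and -0.26 ± 0.25, and those of activation -0.66 ± 0.24, -0.06 ± 0.18 and -0.17 ± 0.25. Pes1 shares 19.7% of its 50-base stretches with other genes. Rrs1, which helps load the smallest rRNA onto the precursor, and Nip7 also did not pass, with -0.35 ± 0.24 and -0.94 ± 0.47 against control. Nip7 spanned 37.1, 6.30 and 19.1 CPM in the TEPP-46 libraries. In this role 4 of 11 members fell against control (all genes 6.43%) and 3 of 11 against resting (all genes 3.92%).

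Setting the groups side by side, 38 of 41 members had their lowest group mean in the TEPP-46 libraries (all genes 25.6%), and in the other 3 (Npm1, Polr1a and Polr1c) that mean lay between the others. In 16 members all 3 TEPP-46 libraries were below the other 6, against 3.88% of all tested genes. Against control alone the TEPP-46 libraries were lower without overlap in 29 members (all genes 20%), and against resting alone in 19 (all genes 14.1%). Control libraries were above all resting libraries in 15 members (all genes 29.2%). The members called lower against both groups numbered 7: Nop56, Nop58, Fbl, Dkc1, Rrp9, Nop16 and Ppan (all genes 0.519%). These 2 comparisons share the TEPP-46 libraries. Against resting, the calls of Dkc1, Nop58, Ppan and Fbl were lost in 12, 11, 9 and 5 of 19 other settings. Those of Nop56 and Nop16 were each lost in 3. The call of Rrp9 held against resting and was lost in 4 settings against control. Against control, the calls of Fbl, Dkc1 and Ppan were lost in 8, 5 and 5 of the 19 settings. Spread among the 3 libraries was smallest in the control group, with a median SD of log2 CPM over members of 0.11, against 0.32 in resting and 0.36 in TEPP-46 libraries. Resting library 1 was the lowest resting library for 31 members, and TEPP-46 library 5 the lowest TEPP-46 library for 23.

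The members not past the threshold were not shown to be unchanged. For control against resting, 24 of 38 such members had a 95% interval within 1 log2 unit of 0. For TEPP-46 against control this held for 13 of 25, and 11 of 25 had an interval that reached below -1. For TEPP-46 against resting it held for 13 of 32, and 18 of 32 reached below -1.

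The counts above moved with single libraries. For control against resting, the count was 1 (higher) without resting library 4 or any control library. All genes called higher then made up 9.46% to 9.97%, and those called lower 8.41% to 10.4%. The count was 5 (4 higher, Bop1 lower) without TEPP-46 library 1 and 6 (5 higher, Bop1 lower) without TEPP-46 library 4. All genes called higher then made up 19.2% and 19.9%, and those called lower were 2597 of 12982 and 2631 of 12899. For TEPP-46 against control, the count was 6, 5 and 4 without control libraries 1, 4 and 5, and 5 without TEPP-46 library 5. All genes called lower then made up 1.06% to 1.73%. For TEPP-46 against resting, the count was 15 without resting library 1 and 1 without resting library 4 or 5. It was 4 without any control library and 3 without TEPP-46 library 5. All genes called lower then made up 1.21% to 3.71%. Against control, Nop16, Nop56, Nop58 and Rrp1b passed in all 19 other settings tried, as did Rrp1b in control against resting and Rrp9 in TEPP-46 against resting. When resting library 1 and TEPP-46 library 4 were left out together, activation raised 6 members (19.7% of all genes) and lowered 5 (Nop10, Rrp9, Bop1, Rrs1 and Nle1; 20.1% of all genes), and TEPP-46 lowered 22 against control (9.31% of all genes) and 22 against resting (6.55%). The medians were then 0.04, -0.86 and -0.86. How far the B cell, myeloid, platelet and nuclear RNA levels bear on the members was not tested.

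Genes of the pathway outside the members were counted in the same fit, and differences between these lists were not tested. Over all tested genes, TEPP-46 lowered 6.43% against control and 3.92% against resting, and activation raised 15.5% and lowered 15.8%. TEPP-46 raised 9.72% of all tested genes against control and 6.37% against resting. Of 36 other large subunit assembly genes, 8 fell and none rose with TEPP-46 against control (median -0.61), and 7 fell against resting (median -0.60). Gtpbp4, a GTPase of the large subunit precursor, went from 103 ± 11.5 (SD, n = 3) and 114 ± 0.901 CPM in resting and control to 56.3 ± 2.46 CPM with TEPP-46 (-1.01 ± 0.18 against control, adjusted p = 0.00719). Sdad1 fell by 1.20 ± 0.23 against control (adjusted p = 0.00952). Ftsj3, an rRNA methyltransferase, passed against resting (-1.38 ± 0.26, adjusted p = 0.012) and not against control (-0.70 ± 0.26, adjusted p = 0.0912). Activation raised 2 and lowered 5 genes of this list.

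Of 34 other small subunit processome genes, 4 fell and none rose with TEPP-46 in each comparison, with medians of -0.28 against control and -0.49 against resting. Activation lowered 6 and raised 2 of them. Imp4 and Wdr46 fell with activation (-1.28 ± 0.19 and -1.01 ± 0.21, adjusted p = 0.00151 and 0.00549), were also lower with TEPP-46 than in resting cells (-0.94 ± 0.19 and -1.32 ± 0.21, adjusted p = 0.0157 and 0.00547) and did not pass for TEPP-46 against control (0.34 ± 0.19 and -0.32 ± 0.21). Noc4l rose with activation (0.93 ± 0.22, adjusted p = 0.0102).

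The 11 factors that assemble snoRNPs had 3 falls and no rise with TEPP-46 against control, and no call against resting. Naf1, which builds box H/ACA particles, measured 8.81 ± 3.49 CPM in resting, 48.0 ± 3.72 CPM in control and 6.35 ± 5.17 CPM in TEPP-46 libraries, a rise of 2.45 ± 0.50 (adjusted p = 0.00561) and a change of -2.87 ± 0.52 with TEPP-46 against control (adjusted p = 0.00851). Shq1, a dyskerin chaperone, and the ATPase Ruvbl2 fell by 1.23 ± 0.29 and 1.33 ± 0.27 against control (adjusted p = 0.0205 and 0.0121).

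Among 10 other genes of RNA polymerase I and its initiation, calls went in both directions. Activation raised 1 and lowered 2 of them, and TEPP-46 against control raised 2 (all genes 9.72%) and lowered 1 (all genes 6.43%). Ubtf, which binds the ribosomal DNA promoter, measured 257 ± 33.8, 137 ± 10.9 and 282 ± 104 CPM in resting, control and TEPP-46 libraries. It fell with activation (-0.91 ± 0.28, adjusted p = 0.0316) and rose with TEPP-46 against control (1.04 ± 0.28, adjusted p = 0.0326), and so did Taf1c, a subunit of the selectivity factor (-1.59 ± 0.33 and 1.26 ± 0.33, adjusted p = 0.00556 and 0.0292). Taf1d, another subunit of that factor, did the reverse (1.49 ± 0.39 and -1.53 ± 0.39, adjusted p = 0.0154 and 0.027). None of the 10 passed for TEPP-46 against resting.

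The 30 cytosolic ribosomal protein genes had 1 rise with activation (Rpl28, 0.90 ± 0.27, adjusted p = 0.0272) and 1 fall with TEPP-46 against control (Rps14, -1.28 ± 0.33, adjusted p = 0.028). Of the 30, 29 were above 0 with activation (median 0.47, all genes 48.3% above 0). All 30 were below 0 with TEPP-46 against control (median -0.31, all genes 48.0% below 0). Against resting, TEPP-46 had 21 of these genes above 0 and 9 below (median 0.11, all genes 51.1% above 0). Their summed level spanned 5850 to 23234 CPM among the TEPP-46 libraries, with library 1 the highest and library 4 the lowest of all 9. Myc measured 59.9, 299 and 188 CPM in the resting libraries, 977, 523 and 512 CPM in the control libraries and 291, 70.6 and 84.8 CPM in the TEPP-46 libraries. It rose by 1.88 ± 0.64 with activation (adjusted p = 0.0464) and changed by -2.17 ± 0.65 with TEPP-46 against control (adjusted p = 0.0455).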

How the data were processed

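The authors deposited whole-number read counts per gene for all 9 libraries in a single table, without normalization. The submitters' processing notes name the build GRCm38 and DESeq2. Not given in the sources used here are the aligner, the counting program with its strand setting, and the annotation's release. Of 47937 identifiers, 47224 matched a GENCODE M21 symbol, 39106 with the same version. Genes were filtered with filterByExpr (minimum count 10, minimum total 15), scaled with TMM factors and fitted by group over all 9 libraries with the quasi-likelihood test of edgeR 4.0.16 in R 4.3.3 (two-sided). Benjamini-Hochberg adjustment ran over 12536 genes, with a threshold of 0.05. The biological coefficient of variation was 0.33, with 6 residual degrees of freedom. SE and 95% intervals came from the same fit, and the script was tested on simulated data. CPM per kb used the longest coding sequence. Promoter windows are from RefSeq.

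Members and lists were chosen with earlier results of these data known. Values in every library are given for members past the threshold in any comparison and for the 2 per role with the highest CPM per kb. Up to 3 called genes per list are named, by smallest adjusted p. Myc is named outside that rule, with its value in every library. Alternatives were DESeq2 1.42.0, limma-voom (limma 3.58.1), other scalings and filters, fits of 2 groups, a block for the replicate label and leaving out libraries. Intervals cover the spread of these libraries only.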

Additional observations from a re-analysis of the deposited data

How the results depend on the processing

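Over all alternatives, the median log2 fold change of the members ran from 0.04 to 0.18 for control against resting, from -0.88 to -0.65 for TEPP-46 against control and from -0.86 to -0.48 for TEPP-46 against resting. Counts of members called (3 for control against resting, 16 for TEPP-46 against control, 9 for TEPP-46 against resting) moved more. For control against resting, DESeq2 called 5, limma-voom 7 (6 higher, 1 lower) and a fit of the 2 groups alone 10 (8 higher, 2 lower). All genes called higher were then 18.5%, 17.3% and 23.9%, and those called lower 17.7%, 15.7% and 23.3%. For TEPP-46 against resting, DESeq2 called 15 and a fit of the 2 groups alone 1 (7.04% and 1.30% of all genes called lower). Leaving out a single library gave 1 to 6, 4 to 22 and 1 to 15 members, in the order of the comparisons. All genes called higher then made up 9.46% to 19.9% for control against resting, and those called lower 8.41% to 20.4%. Of the members in that comparison, Rrp9 was called lower without resting library 1, and Bop1 without TEPP-46 library 1 or 4. All genes called lower made up 1.06% to 16.4% for TEPP-46 against control and 1.21% to 6.29% against resting. With resting library 1 and TEPP-46 library 4 both left out, an alternative chosen after seeing the data, 11 (6 higher, 5 lower), 22 and 22 were called. The cause was not tested. Other scalings and filters called 3 to 4, 16 to 20 and 6 to 9 members. Of all genes, 9.44% to 17.8% were then called higher with activation. Those called lower with TEPP-46 made up 4.81% to 9.43% against control and 2.67% to 4.26% against resting. Scaling by total counts moved the median of all genes from -0.04 to 0.07 for control against resting and from 0.04 to -0.09 for TEPP-46 against control, and the share of calls that were rises in the latter from 60.2% to 43.8%. With a replicate block on the shared labels, 1, 8 and 3 members were called. Of all genes, 13.3% were then called higher with activation, and 4.47% and 1.99% lower with TEPP-46 against control and resting. Correlations of the deviations of same-numbered libraries ran from -0.12 to 0.09. Taken over all genes with 3 libraries per group, these correlations cannot tell whether the labels pair the libraries. No change past the threshold reversed in any alternative. Members not past it did: 13, 3 and 5 members changed sign in at least 1 alternative, in the order of the comparisons, among them Polr1a (0.20 for TEPP-46 against control, -0.24 at the lowest) and Npm1 (0.27 for TEPP-46 against resting, -0.62 at the lowest). Members below 0 ran from 12 to 20, 38 to 41 and 38 to 40.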

Other observations

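Genes next to the pathway gave calls in both directions, and how these lists differ from all genes was not tested. Over all tested genes, TEPP-46 raised 9.72% and lowered 6.43% against control. Against resting it raised 6.37% and lowered 3.92%, and activation raised 15.5% and lowered 15.8%. Of 19 genes of RNA polymerase III and its factors, TEPP-46 against control raised 2 (Maf1, the repressor of that polymerase, by 1.05 ± 0.25, adjusted p = 0.0214, and Brf1, an initiation factor, by 0.98 ± 0.26, adjusted p = 0.0313) and lowered 2, among them the subunit Polr3g (-1.52 ± 0.34, adjusted p = 0.0165). Maf1 and Brf1 had both fallen with activation (-1.49 ± 0.25 and -1.15 ± 0.26, adjusted p = 0.00228 and 0.0085).

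Of 9 genes of ribosomal DNA silencing and the nucleolar checkpoint, the nucleolar deacylase Sirt7 fell with activation (-1.65 ± 0.25, adjusted p = 0.00145) and rose with TEPP-46 against control (1.21 ± 0.25, adjusted p = 0.0123), while the remodelling ATPase Smarca5 did the reverse (1.29 ± 0.39 and -1.28 ± 0.39, adjusted p = 0.0293 and 0.0477). Its partner Baz2a passed for TEPP-46 against resting (1.23 ± 0.30, adjusted p = 0.0292). Among 9 tested genes of MYC and its partners, TEPP-46 against control raised Mxd1, Mxd4 and Mlxip by 1.73 ± 0.23, 1.19 ± 0.27 and 1.02 ± 0.24 (adjusted p = 0.0027, 0.0194 and 0.0201) and lowered Myc.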
